A study of Rattus norvegicus with 9 samples.

Results

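The cartilage miRNAs miR-140 and miR-455 were followed through 3 cultures of rat cartilage progenitor cells. Both arms of each hairpin were taken, that is rno-miR-140-5p, rno-miR-140-3p, rno-miR-455-5p and rno-miR-455-3p, chosen by name, which makes 4 of the 726 miRNA rows of the table. All 4 were among the 439 miRNAs that passed the filter on low counts. The P9 group held wild-type primary cells from condylar cartilage at passage 9, the study's model of replicative senescence. The FFSS group held the same kind of cells at passage 3 under flow fluid shear stress, the study's model of mechanically induced degeneration, and the P3 group held passage 3 cells as the control. Each group had 3 small RNA libraries. The sources used here give neither the age of the animals nor the strength and duration of the flow.

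A miRNA hairpin is cut by Dicer into a duplex, and either strand, named 5p or 3p for its side of the hairpin, can be loaded into an Argonaute protein to repress mRNAs that match its seed, bases 2 to 8. miR-140 lies in an intron of Wwp2, which encodes a ubiquitin ligase, and its transcription in mouse chondrocytes depends on the cartilage factor Sox9. Mice without Mir140 are short, with craniofacial defects, and their joints degenerate early, and the aggrecan-cutting protease Adamts5 is among its known targets there. miR-455 lies in an intron of Col27a1, a fibrillar collagen gene of cartilage, and is known from human and mouse chondrocytes as a repressor of TGF-beta and activin signalling components and of the hypoxia factor HIF-2alpha. For these reasons the hairpins are commonly read as markers of chondrogenic identity.

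The mature strands are shown because their seeds define what each arm can pair with. They were taken from RefSeq on the build GRCr8, with the seed in capitals, and 3 of the 4 members had an entry.
miR-140-5p: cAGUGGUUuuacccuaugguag
miR-140-3p: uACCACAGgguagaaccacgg
miR-455-3p: gCAGUCCAcgggcauauacacu
The hairpins show how the arms face each other, with those mature strands in capitals.
Mir140: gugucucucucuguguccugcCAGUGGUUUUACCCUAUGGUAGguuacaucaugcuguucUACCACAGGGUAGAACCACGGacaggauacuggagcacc
Mir455: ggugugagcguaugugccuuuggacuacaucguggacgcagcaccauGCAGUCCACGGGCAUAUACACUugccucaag
The Mir140 hairpin is 99 bases long, with miR-140-5p at bases 22 to 43 and miR-140-3p at bases 61 to 81, while miR-455-3p takes bases 48 to 69 of the 78 bases of Mir455. Mir140 lies on chromosome 19 inside the span of Wwp2 and Mir455 on chromosome 5 inside the span of Col27a1, each on the plus strand like its host. The 3 seeds differ from each other. None of them is the seed of another of the 693 mature rat miRNAs with a RefSeq sequence, so no seed family stood behind any of these 3 arms in that set.

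The libraries held 7614513 to 8177357 miRNA reads in P9, 2878910 to 7082142 in FFSS and 7522702 to 8862560 in P3. P9 replicate 3 stood apart, with correlations of log2 CPM over the tested miRNAs of 0.947 and 0.955 with the other P9 libraries, which reached 0.992 with each other, and of 0.961 with P3 replicate 2. FFSS replicate 1, the shallowest library, correlated at 0.955 and 0.961 with the other FFSS libraries, against 0.980 between those, and the P3 libraries at 0.982 to 0.990 with each other. Nothing in the labels tells whether the replicates of a group were separate cultures or animals, and p-values therefore reflect the spread between libraries, which could be technical. Fewer cells of a type and less miRNA per cell cannot be told apart in such bulk samples.

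miR-140-3p was the most abundant of the 4 arms and miR-455-3p the least. Levels are given as CPM, the share of a library's miRNA reads scaled to a common total, a scale without a length term, used here between miRNAs because mature strands are of nearly the same length. By its mean over the 9 libraries miR-140-3p ranked 30 of 726, miR-140-5p 66, miR-455-5p 85 and miR-455-3p 152. miR-140-3p held 0.204% to 0.638% of a library's reads, between rank 22 and rank 39. The smallest count behind any value was 283 reads of miR-455-3p in FFSS replicate 1, which gives 98.3 CPM with a 95% Wilson interval of 87.5 to 110.4 CPM. Such intervals cover counting error only, and for miR-140-3p they were within 1.52% of the value in every library. For miR-140-3p counting error was therefore small beside the spread between libraries described next. For miR-455-3p the intervals reached 11.7% of the value to either side.

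**Figure D1:**
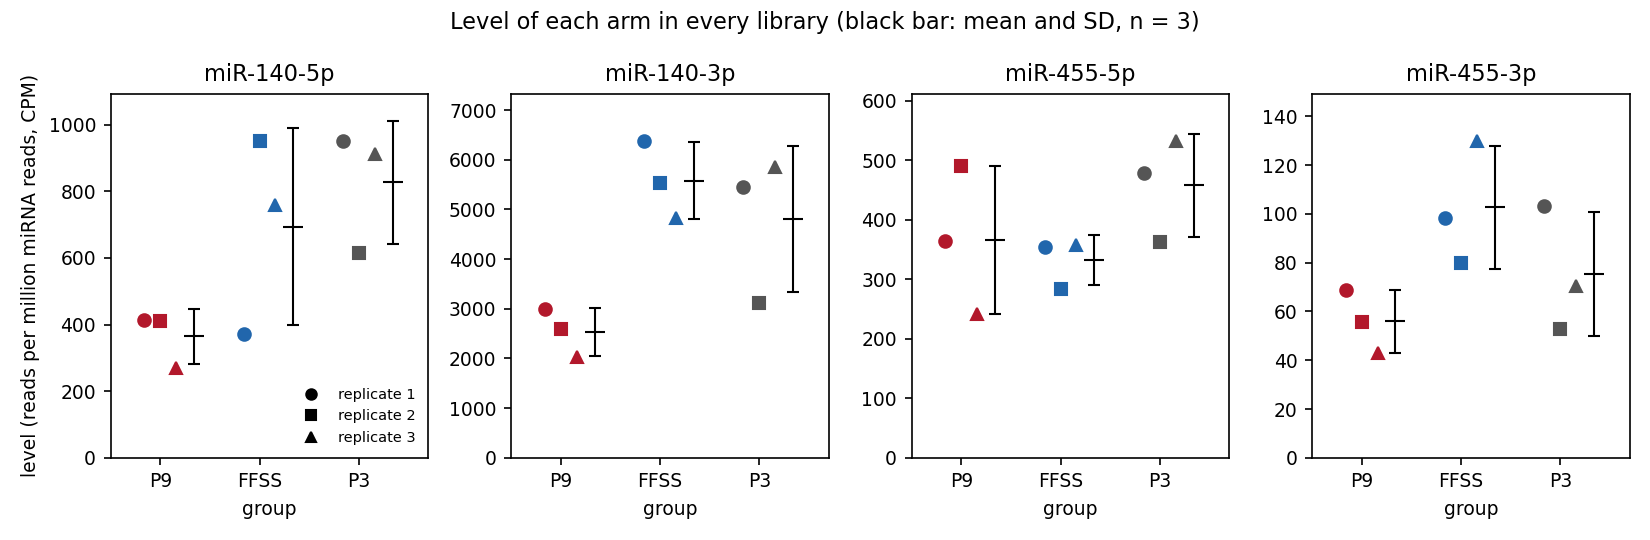
Level of each arm (CPM, linear axis from 0) in the P9, FFSS and P3 libraries, with 1 symbol per library and a black bar for the mean and SD of 3. In both miR-140 panels every P9 library lies below every P3 library, and in the miR-140-5p panel FFSS replicate 1 lies at 371 CPM among the P9 libraries.

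At passage 9 both arms of miR-140 had lower levels than at passage 3, with no overlap of the libraries, but neither passed the test, and neither did the arms of miR-455. The levels of miR-140-5p were 414, 410.4 and 269 CPM in P9, against 950.5, 615 and 912 CPM in P3. Every P9 library was lower than every P3 library, and P9 replicate 3 was the lowest. The means were 365 ± 82.7 CPM in P9 and 826 ± 183 CPM in P3 (SD, n = 3 each), and the log2 fold change was -1.12 (SE 0.34, edgeR quasi-likelihood adjusted p = 0.0679).

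miR-140-3p, the major arm, had 2999, 2585 and 2037 CPM in P9, against 5455, 3119 and 5855 CPM in P3. These libraries did not overlap either, though the highest P9 library and P3 replicate 2, at 2999 and 3119 CPM, lay close together. The means were 2540.0 ± 483 CPM in P9 and 4809.9 ± 1478 CPM in P3 (SD, n = 3 each), with a log2 fold change of -0.86 (SE 0.27, edgeR adjusted p = 0.0763).

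In this comparison 0 of the 4 arms were called at an adjusted p under 0.05, against 7.29% of the 439 tested miRNAs. Both arms of miR-140 had an unadjusted p under 0.05 in edgeR, as did 17.3% of all tested, and DESeq2 called miR-140-5p alone and limma-voom 0 of the 4. Over all 439, DESeq2 called 25 higher and 21 lower in P9, and limma-voom 16 and 16. Groups that did not overlap in CPM with P9 lower were seen for 2 of the 4 arms and for 14.1% of all tested miRNAs. In the order of fold changes from the lowest, 21 tested miRNAs stood below miR-140-5p and 29 below miR-140-3p. The median log2 fold change of all tested miRNAs was 0.062.

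miR-455-5p had 365, 489.99 and 241 CPM in P9, against 479, 363 and 532 CPM in P3, and the libraries of the groups were mixed. Its log2 fold change was -0.26 (SE 0.31, edgeR adjusted p = 0.765), which became -0.55 without P9 replicate 2, -0.065 without P9 replicate 3 and -0.10 without P3 replicate 3. miR-455-3p had 68.9, 55.8 and 43.2 CPM in P9 and 103, 52.6 and 70.4 CPM in P3, where P3 replicate 2 lay among the P9 libraries. Its log2 fold change was -0.35 (SE 0.29, edgeR adjusted p = 0.596), and it ran from -0.49 without P3 replicate 2 to -0.17 without P3 replicate 1. P9 replicate 3 was the lowest of the 9 libraries for all 4 arms, and P3 replicate 2 the lowest P3 library for all 4.

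The threshold was close for miR-140-5p. Its value at passage 9 kept its sign under 23 alternatives, from -1.23 to -0.95, with adjusted p of 0.00737 to 0.201. It passed under 8 of them, among them the fits without FFSS replicate 1 (edgeR adjusted p = 0.0187) or FFSS replicate 2 (0.0322), neither of which belongs to the groups compared. The others included a fit of only P9 and P3 (0.0271) and DESeq2 (0.0179). miR-140-3p passed under 1 alternative, without both P9 replicate 3 and FFSS replicate 1 (edgeR adjusted p = 0.0273, range 0.0273 to 0.431). That setting was added after seeing the data. Over all miRNAs it called 48 higher and 41 lower in P9, against 17 and 15 with all libraries.

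**Figure D2:**
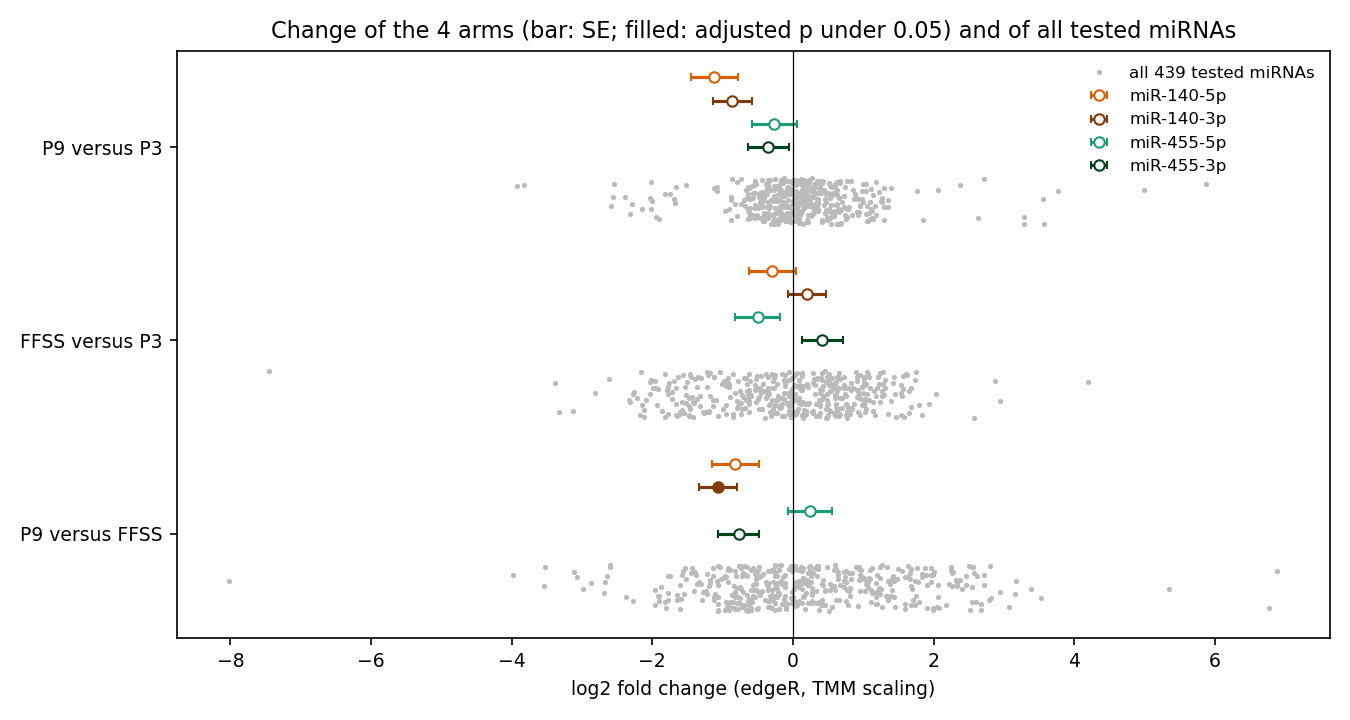
Log2 fold change of the 4 arms (circles, with SE bars, filled where the adjusted p is under 0.05) above those of all 439 tested miRNAs (grey dots) for each of the 3 comparisons. The only filled circle is miR-140-3p in P9 versus FFSS, at -1.06.

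Under shear stress no arm of either hairpin passed the edgeR test against unstressed passage 3 cells. miR-140-5p had 371, 950.3 and 759 CPM in FFSS, against 950.5, 615 and 912 CPM in P3. FFSS replicate 1 was far below the other FFSS libraries, which lay within the range of P3. The means were 693 ± 295 CPM in FFSS and 826 ± 183 CPM in P3 (SD, n = 3 each), with a log2 fold change of -0.29 (SE 0.33, edgeR adjusted p = 0.540). Without FFSS replicate 1 the log2 fold change was -0.13, and without FFSS replicate 2 it was -0.72 (edgeR adjusted p = 0.128).

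miR-140-3p had 6378, 5528 and 4829.6 CPM in FFSS and 5455, 3119 and 5855 CPM in P3. Its levels overlapped, and FFSS replicate 1, low for the 5p arm, was the highest library of all for the 3p arm. The log2 fold change was 0.20 (SE 0.27, edgeR adjusted p = 0.589). It turned to -0.075 without FFSS replicate 1 and to -0.043 without P3 replicate 2, so its direction rested on single libraries.

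miR-455-5p had 355, 283 and 358 CPM in FFSS, against 479, 363 and 532 CPM in P3. The FFSS libraries were all lower, although the highest FFSS library, at 358 CPM, was close to the lowest P3 library, at 363 CPM. The log2 fold change was -0.50 (SE 0.32, edgeR adjusted p = 0.259). Without both P9 replicate 3 and FFSS replicate 1 it was -0.70 and passed (edgeR adjusted p = 0.0347, range 0.0347 to 0.477 over the alternatives). That setting was added after seeing the data. Over all miRNAs it called 68 higher and 107 lower in FFSS, against 30 and 60 with all libraries. For miR-455-3p the levels were 98.3, 79.8 and 129.9 CPM in FFSS and 103, 52.6 and 70.4 CPM in P3. Here FFSS was the higher side, with overlap, at a log2 fold change of 0.42 (SE 0.29, edgeR adjusted p = 0.297), which was 0.20 without P3 replicate 2.

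Of the 4 arms, 0 were called under shear stress, against 20.5% of the 439 tested miRNAs, and 0 had an unadjusted p under 0.05 in edgeR, against 36.2%. DESeq2 and limma-voom also called 0 of the 4, while over all 439 DESeq2 called 43 higher and 75 lower, and limma-voom 23 and 58. Only miR-455-5p had FFSS libraries that were all below P3, a pattern seen for 22.6% of all tested. The log2 fold changes of the 4 arms lay between -0.50 and 0.42, with SE of 0.27 to 0.33.

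Set directly against shear-stressed cells, passage 9 cells had less miR-140-3p, and this was the only arm that edgeR called with all 9 libraries in any of the 3 comparisons. The levels of 2999, 2585 and 2037 CPM in P9 all lay below the 6378, 5528 and 4829.6 CPM in FFSS. The means were 2540.0 ± 483 CPM in P9 and 5579 ± 775 CPM in FFSS (SD, n = 3 each), and the log2 fold change was -1.06 (SE 0.27, edgeR adjusted p = 0.00953), so the P9 level was 0.478 times the FFSS level. The call was kept under all 23 alternatives, with adjusted p of 0.00254 to 0.0432. Without FFSS replicate 1 the log2 fold change was -0.77, and without that library and P9 replicate 3 together it was -0.69.

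miR-140-5p had 414, 410.4 and 269 CPM in P9 and 371, 950.3 and 759 CPM in FFSS, where FFSS replicate 1 alone overlapped with P9. Its log2 fold change was -0.82 (SE 0.34, edgeR adjusted p = 0.0709) and it passed under 4 of the 23 alternatives, one of them without FFSS replicate 1, at -0.97 (edgeR adjusted p = 0.0207, range 0.0115 to 0.373). miR-455-3p had 68.9, 55.8 and 43.2 CPM in P9, all below the 98.3, 79.8 and 129.9 CPM in FFSS. Its log2 fold change was -0.77 (SE 0.29, edgeR adjusted p = 0.0553). It passed with DESeq2 size factors, upper-quartile factors, merged near-identical rows or DESeq2, over a range of 0.0208 to 0.209. miR-455-5p was mixed between the groups, at 0.24 (SE 0.32, edgeR adjusted p = 0.582), with 0.012 without P9 replicate 2 and 0.49 without P9 replicate 3.

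Of the 4 arms, 1 was called in this comparison, against 34.4% of all tested miRNAs, so a call here was common. DESeq2 called 3 of the 4, with miR-140-5p (adjusted p = 0.0390) and miR-455-3p (0.0208) beside miR-140-3p (0.00254), and limma-voom called miR-140-3p alone. Those methods also called more of the 439 miRNAs, DESeq2 105 higher and 78 lower in P9, and limma-voom 101 and 62. With P9 lower, edgeR called 1 of 4 arms, against 11.8% of all tested. Of the 439, 99 miRNAs had a higher and 52 a lower level in P9 by the test, and with upper-quartile factors 94 and 77. Groups that did not overlap with P9 lower were seen for miR-140-3p and miR-455-3p, and for 19.8% of all tested.

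In order of mean level, the groups ran P9, P3, FFSS for miR-140-3p, of which edgeR called only P9 against FFSS. For miR-140-5p the order was P9, FFSS, P3, for miR-455-5p FFSS, P9, P3 and for miR-455-3p P9, P3, FFSS, with no neighbours, and no ends, called by edgeR in these 3 arms. DESeq2 called P9 below both other groups for miR-140-5p and P9 below FFSS for miR-455-3p. P9 had the lowest mean for 3 of the 4 arms.

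Counts of the arms were then set against each other within each library, which needs no scaling between libraries. Ligation favours some sequences over others, so the ratio is not a molar ratio, but that preference is the same in every library made alike. miR-140 gave mostly 3p reads and miR-455 mostly 5p reads in all 9 libraries. For miR-140 the 5p arm made up 12.1%, 13.7% and 11.7% of the hairpin's reads in P9, 5.49%, 14.7% and 13.6% in FFSS, and 14.8%, 16.5% and 13.5% in P3. FFSS replicate 1 stood alone, with 17.2 reads of 3p for each read of 5p, where the other 8 libraries had 5.07 to 7.57.

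The log2 ratio of 5p to 3p for miR-140 was -2.81 ± 0.14 in P9, -3.10 ± 0.87 in FFSS and -2.51 ± 0.17 in P3 (SD, n = 3 each). The difference from P3 was -0.30 in P9 (limma adjusted p = 0.989) and -0.59 in FFSS (limma adjusted p = 0.352), the second standing at -0.090 without FFSS replicate 1. In that library the ratio of miR-140 lay 1.59 log2 units under the P3 mean, and 12 of 89 hairpins lay further under theirs. The median absolute difference from the P3 mean over the 89 hairpins was 0.86 in FFSS replicate 1 and 0.66 and 0.70 in FFSS replicates 2 and 3. It was 0.32 to 0.60 in P9, and 0.18 to 0.28 in P3, whose libraries make up that mean. Arm ratios in general were thus furthest from P3 in FFSS replicate 1, with the other FFSS libraries next. The part of FFSS replicate 1 in the miR-140-5p result was not tested.

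For miR-455 the 5p arm made up 84.1%, 89.8% and 84.8% of reads in P9, 78.3%, 78.0% and 73.4% in FFSS, and 82.3%, 87.3% and 88.3% in P3. Each FFSS library had a smaller share of 5p than any other library, including FFSS replicates 2 and 3, whose miR-140 ratios were like those of P3. The log2 ratio was 2.67 ± 0.40 in P9, 1.71 ± 0.22 in FFSS and 2.64 ± 0.37 in P3 (SD, n = 3 each). The difference of FFSS from P3 was -0.92 (SE 0.36, limma adjusted p = 0.120) and that of P9 from FFSS 0.96 (SE 0.36, limma adjusted p = 0.123), so neither passed over 89 hairpins. The medians of these differences over the 89 hairpins were -0.25 and 0.22, and 55 hairpins had a lower ratio in FFSS than in P3.

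The FFSS and P3 ratios of miR-455 did not overlap, with FFSS lower, as for 29.2% of the 89 hairpins, and those of P9 did not overlap with FFSS, with P9 higher, as for 19.1% of them. By limma 4.49% of the hairpins were called in FFSS against P3. In P9 against FFSS 7.87% were called. Both differences of miR-455 passed without P9 replicate 3 (limma adjusted p = 0.0465 for FFSS against P3, range 0.0430 to 0.337, and 0.0391 for P9 against FFSS, range 0.0335 to 0.334). In P9 against P3 the difference was 0.033 (limma adjusted p = 0.989) and 0% of the hairpins were called by limma, with 2.25% at an unadjusted p under 0.05.

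**Figure D3:**
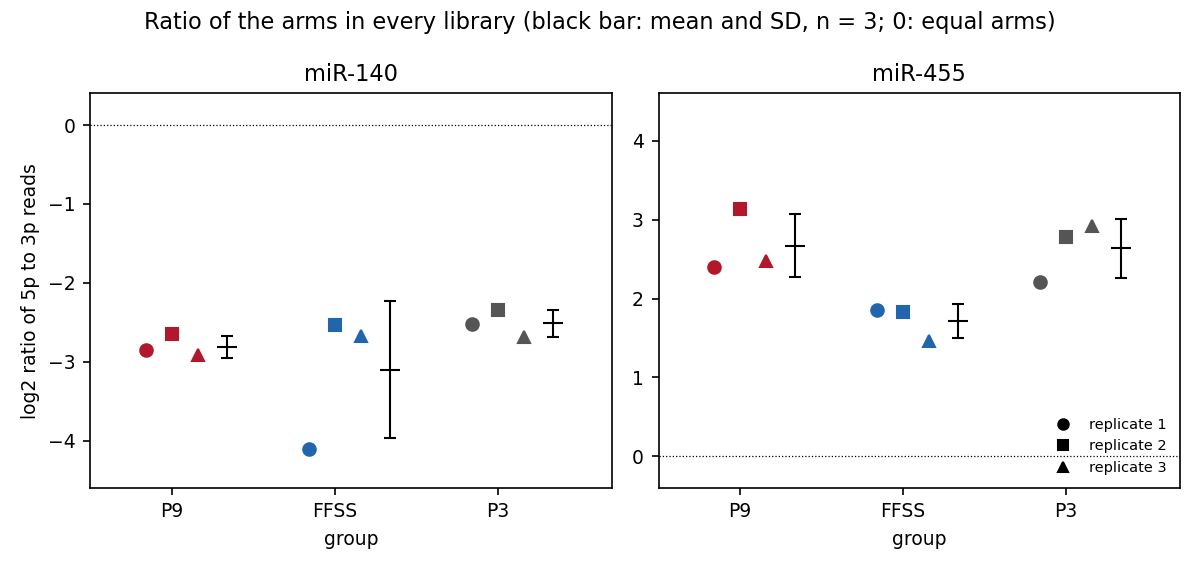
Log2 ratio of 5p to 3p reads in the P9, FFSS and P3 libraries for miR-140 (left) and miR-455 (right), with 1 symbol per library, a black bar for the mean and SD of 3, and a dotted line at equal arms. miR-140 lies below 0 and miR-455 above 0 in every library, FFSS replicate 1 is alone at -4.10 for miR-140, and the 3 FFSS libraries are lowest for miR-455.

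With both arms summed, only miR-140 in P9 against FFSS passed the test. miR-140 came to 3413, 2995 and 2306 CPM in P9, 6749, 6478 and 5588 CPM in FFSS, and 6406, 3735 and 6767 CPM in P3. miR-455 came to 434, 546 and 284 CPM in P9, 453, 363 and 488 CPM in FFSS, and 582, 415 and 603 CPM in P3. The miR-140 sum was lower in P9 than in each library of the other groups, while the miR-455 sums were mixed between groups. The log2 fold change of the summed miR-140 reads was -0.89 (SE 0.26, edgeR adjusted p = 0.0597) in P9 against P3, 0.14 (edgeR adjusted p = 0.726) in FFSS against P3 and -1.04 (SE 0.26, edgeR adjusted p = 0.00910) in P9 against FFSS. For miR-455 the same values were -0.27 (edgeR adjusted p = 0.728), -0.33 (0.425) and 0.059 (0.888).

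The ratio of miR-140 to miR-455 within each library is also free of scaling. Its log2 value was 2.98, 2.46 and 3.02 in P9, 3.90, 4.16 and 3.52 in FFSS, and 3.46, 3.17 and 3.49 in P3. The lowest libraries were those of P9 and the highest those of FFSS, with FFSS replicate 3 and P3 replicate 3 nearly level. The means were 2.82 ± 0.31 in P9, 3.86 ± 0.32 in FFSS and 3.37 ± 0.18 in P3 (SD, n = 3 each). The differences were -0.56 for P9 against P3, 0.48 for FFSS against P3 and -1.04 for P9 against FFSS, each at p = 0.10 in a two-sided exact permutation test, also after adjustment over the 3 comparisons. This is the smallest p that 3 against 3 libraries allow, so the test could not pass. The comparisons share libraries and are not independent.

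**Figure D4:**
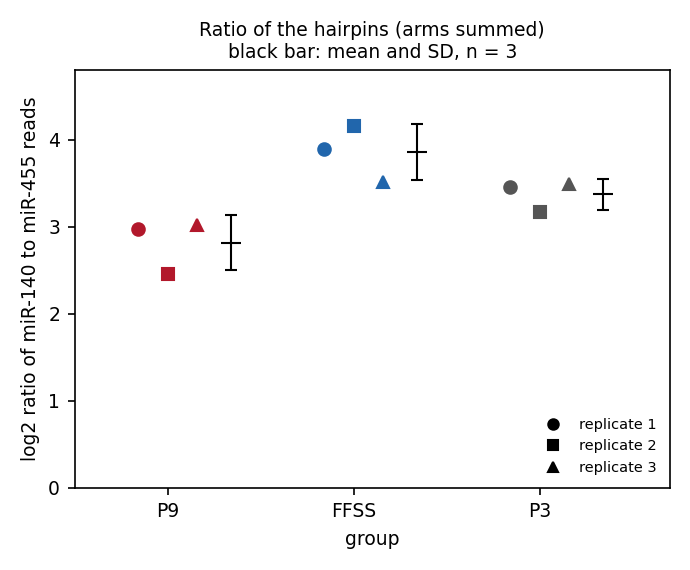
Log2 ratio of summed miR-140 reads to summed miR-455 reads (axis from 0) in the P9, FFSS and P3 libraries, with 1 symbol per library and a black bar for the mean and SD of 3. P9 libraries lie between 2.46 and 3.02, FFSS libraries between 3.52 and 4.16 and P3 libraries between 3.17 and 3.49.

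Among themselves the arms varied together to different degrees over the 9 libraries. The Pearson correlation of log2 CPM was 0.623 between miR-140-5p and miR-140-3p and -0.023 between the arms of miR-455, but 0.754 between miR-140-3p and miR-455-3p. The points share libraries and depth, and groups differ among them, so these correlations are descriptions over 9 libraries.

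The most similar profiles were looked for among 177 other tested miRNAs with a mean of at least 50 CPM. For miR-140-5p these were miR-27b-3p (r = 0.907), miR-148b-3p (0.868) and miR-199a-3p (0.862). For miR-140-3p they were miR-195-5p (0.920) and, at 0.901, miR-378a-3p with miR-3557-5p, rows whose counts were nearly identical so that neither can be read alone. miR-195-5p averaged 14.1 CPM in P9, 171 CPM in FFSS and 87.2 CPM in P3, a wider range than that of miR-140-3p, with P9 lowest and FFSS highest in mean as in miR-140-3p.

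For miR-455-5p the nearest were miR-148a-5p (0.881), miR-340-5p (0.851) and miR-103-3p (0.794). For miR-455-3p they were miR-214-3p (0.947), miR-23a-3p (0.903) and miR-23b-3p (0.893). All 3 had a lower mean in P9 than in FFSS (log2 fold changes of -1.03, -0.96 and -1.30). That order follows largely from how they were picked, by likeness to miR-455-3p over the same libraries, and adds no support. No miRNA was among the 3 nearest of more than 1 arm.

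**Figure D5:**
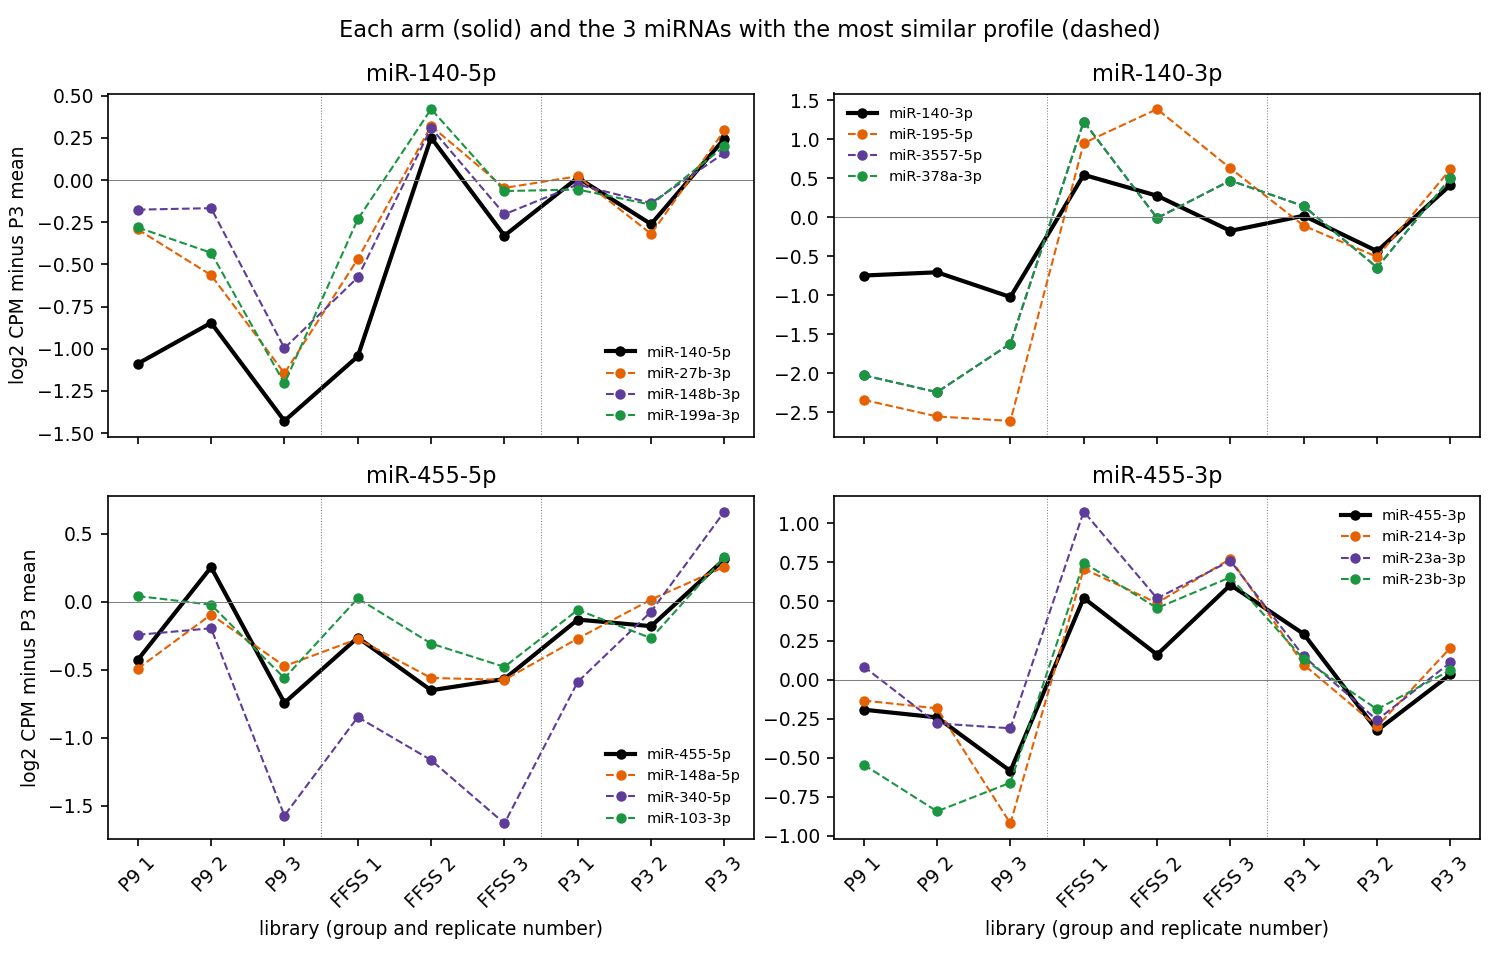
Log2 CPM minus the P3 mean in the 9 libraries for each arm (solid black) and the 3 miRNAs with the highest correlation to it (dashed), where lines only join the points of 1 miRNA and miR-3557-5p is hidden under miR-378a-3p. miR-140-3p moves within a narrower band than miR-195-5p and the miR-378a-3p pair.

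A list of other miRNAs described in chondrocytes and cartilage was read beside the 4 arms. Of its 12 entries 11 were in the table and 10 were tested. In P9 against P3, 0 of the 10 passed in edgeR, against 7.29% of all tested miRNAs (median log2 fold change -0.074, against 0.062 over all tested). In FFSS against P3 0 passed, against 20.5% of all tested (median 0.24, against 0.024 over all). In P9 against FFSS 2 of the 10 passed, against 34.4% of all tested. miR-320-3p, known to repress the collagenase Mmp13 in mouse chondrocytes, was lower in P9 (log2 fold change -1.23, SE 0.33, edgeR adjusted p = 0.0118). It averaged 314 CPM in P9, 799 CPM in FFSS and 559 CPM in P3. Against P3 its log2 fold changes were -0.74 in P9 (edgeR adjusted p = 0.252) and 0.49 in FFSS (0.281). miR-127-5p, a repressor of MMP13 in human chondrocytes, was higher in P9 (log2 fold change 1.39, SE 0.44, edgeR adjusted p = 0.0295). It averaged 17.8 CPM in P9, 7.04 CPM in FFSS and 14.2 CPM in P3. Against P3 its log2 fold changes were 0.35 in P9 (edgeR adjusted p = 0.769) and -1.04 in FFSS (0.111). In P9 against FFSS the median of the list was -0.36 against 0.024 over all.

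The most abundant entries did not pass. miR-27b-3p, also reported to target MMP13, averaged 35418 CPM in P9, 56664 CPM in FFSS and 57065 CPM in P3, with log2 fold changes of -0.65 in P9 (edgeR adjusted p = 0.252) and -0.050 in FFSS (0.914), both against P3. miR-29a-3p, a repressor of collagen genes, averaged 3862 CPM in P9, 4627 CPM in FFSS and 3874 CPM in P3, at 0.055 (edgeR adjusted p = 0.956) and 0.21 (0.564). miR-675-3p, made from the imprinted H19 RNA and reported to follow SOX9 in human chondrocytes, did not exceed 0.424 CPM in any library.

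Some markers of other cell types were called in these comparisons. The 8 miRNAs listed for fibroblasts and smooth muscle summed to 352212 to 532056 CPM in P9, 212745 to 265829 CPM in FFSS and 295596 to 357265 CPM in P3, each with reads in every library. In P9 against FFSS 5 of the 8 were called higher in P9 and 1, miR-214-3p, lower. There 34.4% of all tested miRNAs were called, 99 of the 439 higher and 52 lower. In P9 against P3 1 of the 8, miR-143-3p, rose (154434 CPM in P9 and 62078 CPM in P3 on average, edgeR adjusted p = 0.00348). There 7.29% of all tested miRNAs were called, and 3 of the 8 had a negative fold change. In FFSS against P3 1 of the 8, miR-145-5p, fell (2047 CPM in FFSS and 5958 CPM in P3 on average, edgeR adjusted p = 0.00944). Of all tested 20.5% were called there, and 6 of the 8 had a negative fold change. Their part in the miR-140 result was not tested.

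The 7 blood miRNAs summed to 73.1 to 311 CPM in P9, 171 to 603 CPM in FFSS and 79.5 to 160.0 CPM in P3. Of 5 tested 1, miR-142-5p, was higher in FFSS than in P3 and lower in P9 than in FFSS by the test. In these comparisons 20.5% and 34.4% of all tested miRNAs were called. The 6 measured muscle miRNAs came to 151 to 534, 189.6 to 539 and 141 to 158 CPM in P9, FFSS and P3, the 7 epithelial ones to 25.2 to 77.7, 90.4 to 226 and 81.1 to 102 CPM, and the 2 endothelial ones to 275 to 490.5, 556 to 695 and 386 to 406 CPM. The 6 miRNAs of the nervous system came to 994 to 2423, 623 to 1653 and 748 to 1567 CPM, liver miR-122-5p to 3.43 to 22.9, 15.5 to 51.4 and 9.87 to 11.7 CPM, and the 2 measured osteoblast entries to 2.10 to 14.8, 13.7 to 26.7 and 5.64 to 9.04 CPM, in the same order. By the test the epithelial miR-200b-3p, 1 of 6 tested, and the neural miR-9a-5p, 1 of 4 tested, were higher in FFSS than in P3. Their log2 fold changes were 1.53 and 1.21 (edgeR adjusted p = 0.0399 and 0.0464), where 20.5% of all tested miRNAs were called. The row of miR-9a-5p is nearly identical to that of miR-9b-3p. Of the 4 neural miRNAs 2 were negative there, miR-129-5p at -0.43 and miR-128-3p at -0.12, and of the 6 epithelial ones 0. The epithelial miR-203a-3p, 1 of 6 tested, was lower in P9 than in FFSS, at -1.57 (edgeR adjusted p = 0.0361), where 34.4% of all tested were called. Levels within a list ranged widely. Over the 9 libraries miR-451-5p of the blood list had 24.5 to 276 CPM and miR-486 31.0 to 296 CPM, while miR-144-3p had 0 reads in 4 libraries and miR-223-3p in 3. Of the muscle list miR-133a-3p had 8.24 to 40.4 CPM and miR-208b-3p 0 reads in 5 libraries, and of the nervous system list miR-9a-5p had 29.8 to 133 CPM and miR-124-3p 0 reads in 2. Their part in the results on miR-140 and miR-455 was not tested.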

How the data were processed

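Small RNA was sequenced from 1 end in 9 libraries, 3 each of P9, FFSS and P3, grouped by the sample titles. The deposited table gave a read count per miRNA, per the file headers, for 635 annotated and 91 predicted rows. It also gave TPM values deposited by the authors, which matched CPM computed from the counts within 4.85e-05, so that they hold no length term. The submitters' processing notes name Bowtie and the build Rnor_6.0 without their roles. The sources used here do not give the counting program or the miRNA release. Of the table's sample columns, 0 were left unused.

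Counts were fitted in edgeR 4.0.16 (R 4.3.3) after filterByExpr, which removed 0.00685% of reads, with TMM factors of 0.897 to 1.18, all 9 libraries in 1 model and the robust quasi-likelihood test. Two-sided p-values were adjusted over 439 miRNAs by Benjamini-Hochberg, and calls made under 0.05. SE is of the log2 fold change. For the 89 hairpins whose arms each averaged 20 counts or more, 0.5 was added to every count and the log2 ratio of the arms, 5p over 3p, was tested with limma 3.58.1. The ratio of hairpins had an exact permutation test. Scripts were tested on simulated counts. In 29 pairs of rows counts agreed in every library within 10% or 5 reads, and none of these rows was an arm of miR-140 or miR-455.

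The members and lists were chosen with earlier results of these data known. Named are the 4 arms, for each arm the 3 tested miRNAs with the highest correlation, and from the cartilage list those that passed and the 2 with the most reads. Rows named for small counts or zeros, and summed arms, were chosen after values were seen. Alternatives were 4 other scalings, 2 other filters, limma-voom, DESeq2 1.42.0, log2(TPM + 1) or log2(TPM + 10) in limma-trend, a replicate block, fits of 2 groups, merged near-identical rows, other pseudocounts or minimums for arms, and leaving out each library. Leaving out P9 replicate 3 with FFSS replicate 1 was added after seeing the data.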

Additional observations from a re-analysis of the deposited data

Results flagged for a closer look

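The changes of miR-140-3p from P3 differed between passage 9 and shear stress. Its log2 fold change against P3 was -0.86 in P9 and 0.20 in FFSS, and the test of the difference, P9 against FFSS, gave -1.06 (edgeR adjusted p = 0.00953). Neither change from P3 passed by itself (edgeR adjusted p = 0.0763 in P9 and 0.589 in FFSS). The FFSS change turned to -0.075 without FFSS replicate 1, -0.043 without P3 replicate 2 and -0.048 without both P9 replicate 3 and FFSS replicate 1, and the difference was -0.77 without FFSS replicate 1 and -0.69 without both libraries. All 3 P9 libraries were lower than all 3 FFSS libraries. Both changes use the same P3 libraries, which cancel in the difference.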

How the results depend on the processing

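Over 12 fold changes of single arms and 23 alternatives each, 255 of 276 values kept their direction and side of the threshold, 18 gained a call, 0 lost one and 3 turned in sign. Only miR-140-3p in P9 against FFSS was called with all libraries, so only its 23 alternatives could lose a call. Called at passage 9 against P3, miR-140-5p gave -1.17 (upper-quartile factors), -1.11 (no filter, and merged rows), -1.12 (DESeq2, and a fit of 2 groups) and -0.95 without both P9 replicate 3 and FFSS replicate 1. In P9 against FFSS it was called at -0.90 (upper-quartile factors), -0.86 (DESeq2) and -0.85 (without both libraries), and miR-455-3p at -0.82 (DESeq2 size factors, and merged rows), -0.89 (upper-quartile factors) and -0.81 (DESeq2). Without both libraries, miR-140-3p in P9 against P3 was called at -0.74, miR-455-5p in FFSS against P3 at -0.70, and the miR-455 arm ratio at -0.99 in FFSS against P3 and 1.12 in P9 against FFSS. There miR-140-3p in FFSS against P3 turned to -0.048 and the miR-140 arm ratio in P9 against FFSS to -0.15. The cause was not tested.

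Leaving out 1 library gave -1.23 to -0.97 for miR-140-5p in P9 against P3, -0.97 to -0.39 in P9 against FFSS and -0.72 to -0.13 in FFSS against P3, and for miR-140-3p -1.04 to -0.64, -1.21 to -0.77 and -0.075 to 0.36 in the same order. For miR-455-5p it gave -0.55 to -0.065 in P9 against P3, 0.012 to 0.49 in P9 against FFSS and -0.73 to -0.41 in FFSS against P3, and for miR-455-3p -0.49 to -0.17, -0.83 to -0.59 and 0.20 to 0.50. The miR-455 arm ratio then ran from -0.20 to 0.17 in P9 against P3, -1.14 to -0.79 in FFSS against P3 and 0.73 to 1.09 in P9 against FFSS, and that of miR-140 from -0.20 to 0.58 in P9 against FFSS.

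Over all miRNAs the calls in P9 against P3 were 8 to 26 higher and 7 to 25 lower without 1 library, and 48 and 41 without both. In FFSS against P3 (30 higher and 60 lower) they were 3 to 53 and 32 to 94, and 68 and 107 without both. The number higher there was 15 with no filter and 51 in a fit of 2 groups, and the number lower 39 with a mean of at least 50 counts. In P9 against FFSS the number lower was 28 to 80 without 1 library, 84 without both, 81 on log2(TPM + 10) and 28 in a fit of 2 groups.

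Same-numbered libraries did not deviate together (correlations of -0.42 to 0.14 over 9 pairs, 1 of them above 0.1), and differently numbered pairs ran from -0.42 to 0.42. Whether same-numbered libraries share a culture or an animal is not told by the labels, and such correlations cannot settle it. The replicate block gave 9 higher in FFSS against P3 and changed no call on the 4 arms, with -1.14 for miR-140-5p and -0.86 for miR-140-3p in P9 against P3, and -1.05 for miR-140-3p in P9 against FFSS. Counting limited miR-455-3p most, where a 95% interval reached 11.7% of the value to either side.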
